A study of Mus musculus with 12 samples.

Results

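The genes described are Fst, Fstl1, Wfikkn1 and Inhba, taken as every probe set that the platform annotation assigns to one of them alone. These are 4 of the 12393 genes with such a probe set, and 5 of 20380 probe sets, since Fstl1 has 2. They were chosen by their signal on these same arrays, across the 6 groups, so their levels and differences are given as a description with no test. Muscle progenitors came from ICR mouse embryos carrying Myf5Cre and RosaYFP, in which YFP marks any cell with a history of Myf5, a muscle determination factor, and its progeny. All 6 groups carry both alleles. They are YFP-positive cells sorted from head or from trunk on embryonic day 9.5, 10.5 or 11.5 (E9.5 to E11.5), with 2 arrays per group and 12 in all. The mark follows past as well as present Myf5, so the sort can hold cells that are no longer, or did not become, myogenic. Nothing in the labels tells whether a group's 2 arrays hold separate embryos or pools, so p-values measure the spread between these samples, which may be technical.

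Activins and myostatin are secreted ligands of the TGF-beta family that bind the type II receptors Acvr2a and Acvr2b and signal through Smad2 and Smad3, and myostatin limits muscle mass. Their access to the receptor is set outside the cell. Follistatin (Fst) wraps activin and myostatin and blocks receptor binding, and Wfikkn1 binds myostatin and its propeptide. Follistatin-like 1 (Fstl1) shares a follistatin-type domain but is better known as a matrix-associated glycoprotein of mesenchyme that also binds ligands of the BMP branch. Inhba, the member that is bound rather than binding, encodes the activin A subunit. Myostatin itself (Mstn) was on the list of pathway genes read below but was not among the genes tested, so no value is given for it.

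The median signal of an array lay between 108.6 and 110.4 intensity units, or 6.76 to 6.79 on the log2 scale, and a signal below its array's median was treated as dim. Fst and both Fstl1 probe sets lay above the median on all 12 arrays. Wfikkn1 lay below it on 9 arrays and Inhba on all 12. Thus 4 of the 5 probe sets, but not that of Inhba, met the filter of at least 2 arrays above the median. The Wfikkn1 signals nearest the median were 0.61 above and 0.24 below it (log2), the Fst signal nearest it was 0.11 above, and the Inhba signal nearest it was 0.53 below. Of 10 myogenic markers 8 met that filter. Myf5 and Pax3 were above the median on every array. By the probe set with fewest such arrays, Myog and Msc were below it on 2, Myod1 on 4, and Pax7 and Tcf21 on 6. Met was below it on 9, and the markers that did not meet the filter were Des, below it on 11, and Myf6, below it on every array. The transcript Xist, of the inactive X chromosome, stood at log2 7.35 on head E10.5 replicate 1 and at 6.37 on trunk E10.5 replicate 1, against 11.89 or more on the other 10 arrays, and list genes that lost a call without that pair are named.

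**Figure D1:**
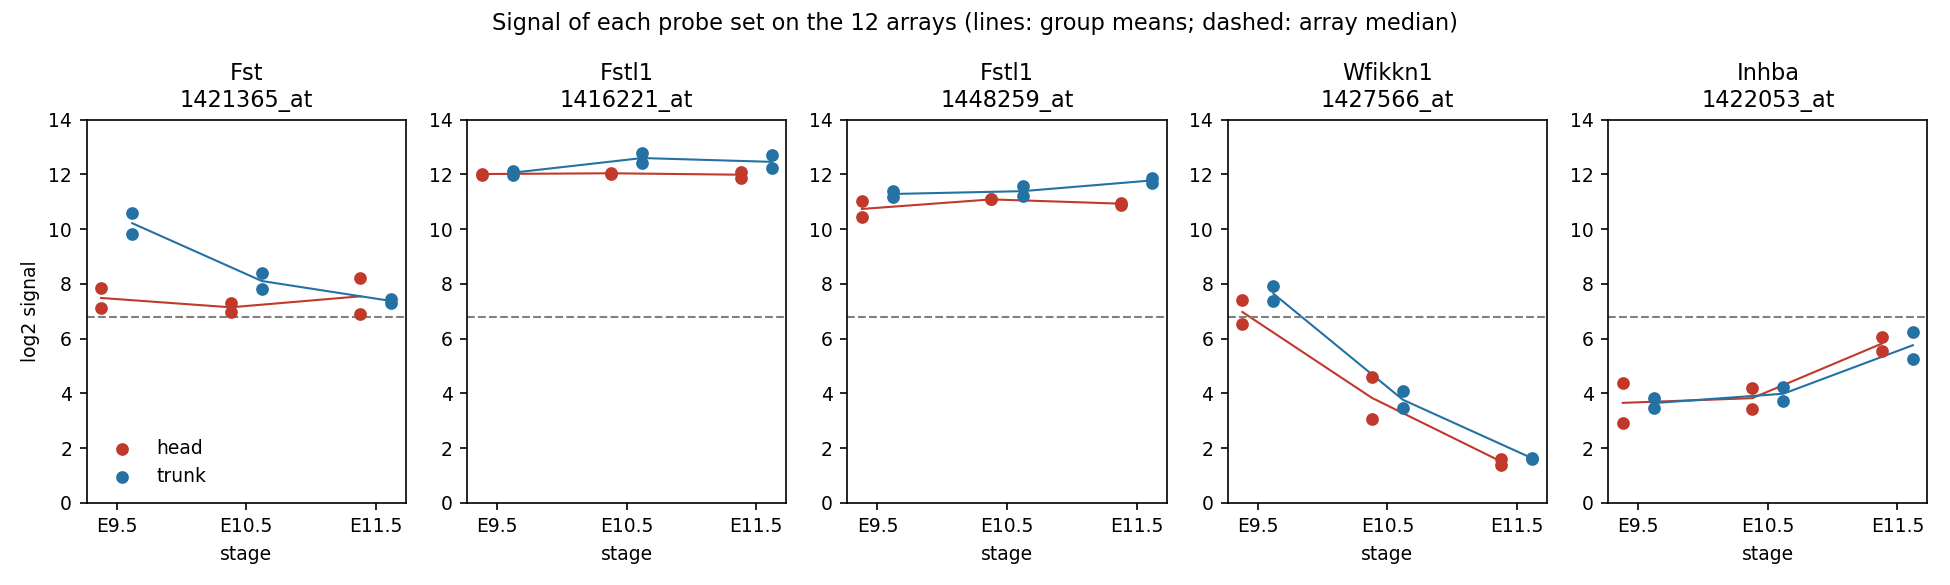
Log2 signal of the 5 probe sets (panels) by stage, with a point per array, lines through the group means, head in red, trunk in blue and the array median dashed. Fst stands at 9.84 and 10.59 in trunk at E9.5 and at or below 8.39 on the other 10 arrays, while Wfikkn1 is lower and Inhba higher at E11.5 than at E9.5 in both tissues.

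Among the binding proteins, Fst was high in a single group. In trunk at E9.5 its log2 signal was 9.84 and 10.59, or 914 and 1546 intensity units. In head at E9.5 it was 7.84 and 7.13, or 229 and 140 units. These groups did not overlap, and head was 6.64-fold lower (log2 −2.73 ± 0.41, SE from limma, n = 2 arrays per group). In that comparison limma called 5.92% of the 7722 genes tested, a different measure. Fst was among the genes fitted, but no test result is given for it. With 2 arrays per group, the groups of an unchanged gene can often stand apart by chance. Here and below, the share of all genes without overlap was not computed, and the share called by limma does not stand in for it.

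In trunk at E10.5 the Fst signal was 7.82 and 8.39, and in head 7.30 and 6.98. The groups stayed apart, with head lower by 1.95-fold (log2 −0.96 ± 0.41), where 4.52% of all genes were called. At E11.5 trunk stood at 7.30 and 7.45 and head at 6.89 and 8.20. Here the trunk arrays lay between the head arrays (log2 0.17 ± 0.41), and the sign of that difference turned with the head array left out, from −0.48 without replicate 2 to 0.82 without replicate 1. Head E11.5 replicate 2 was the highest head array for this gene.

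Along the stages the larger difference in Fst lay in trunk. From E9.5 to E11.5 the trunk mean went from 10.21 to 7.37, a log2 difference of −2.84 ± 0.41 or 7.17-fold, and 13.4% of all genes were called in that comparison. Most of this lay in the first day, at −2.11, against −0.73 in the second. Neither step had overlapping arrays. The head means were 7.48, 7.14 and 7.54, with overlapping arrays at each step, and the change over both days was 0.06 ± 0.41, in a comparison with 4.78% of genes called. Head minus trunk, this change was log2 2.90 ± 0.59. That value ranged from 2.25 without head E11.5 replicate 2 to 3.56 without head E11.5 replicate 1. Ordered by mean, trunk at E9.5 was followed by trunk at E10.5, head at E11.5, head at E9.5, trunk at E11.5 and head at E10.5, and among the last 5 every neighbouring pair overlapped.

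Wfikkn1, a secreted protein of several protease-inhibitor-like domains, was measurable above the array median at E9.5 alone. In head at E9.5 its log2 signal was 6.55 and 7.40, the first of which was below the median, and in trunk 7.37 and 7.91. At E10.5 it was 3.07 and 4.60 in head and 4.08 and 3.45 in trunk. At E11.5 it was 1.40 and 1.61 in head and 1.65 and 1.60 in trunk. The stages were separate from one another in each tissue, and within each stage head and trunk overlapped.

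The fitted difference from E9.5 to E11.5 was −5.47 ± 1.08 in head and −6.02 ± 1.08 in trunk. These differences pass through signals far below the median, so only bounds are given as folds. With dim signals raised to the array median, the level at E11.5 was at least 1.24-fold lower in head and at least 1.82-fold lower in trunk. Head minus trunk was −0.67 ± 1.08 at E9.5 (at least 1.46-fold lower in head), 0.07 ± 1.08 at E10.5 and −0.12 ± 1.08 at E11.5, with both tissues below the median at the later stages. Without the E10.5 replicate 1 arrays the E10.5 value was 1.15, and it was −0.69 without head E10.5 replicate 2 and 0.84 without head E10.5 replicate 1. Between head and trunk this change differed by 0.55 ± 1.53, smaller than its error, where 1.48% of all genes were called.

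**Figure D2:**
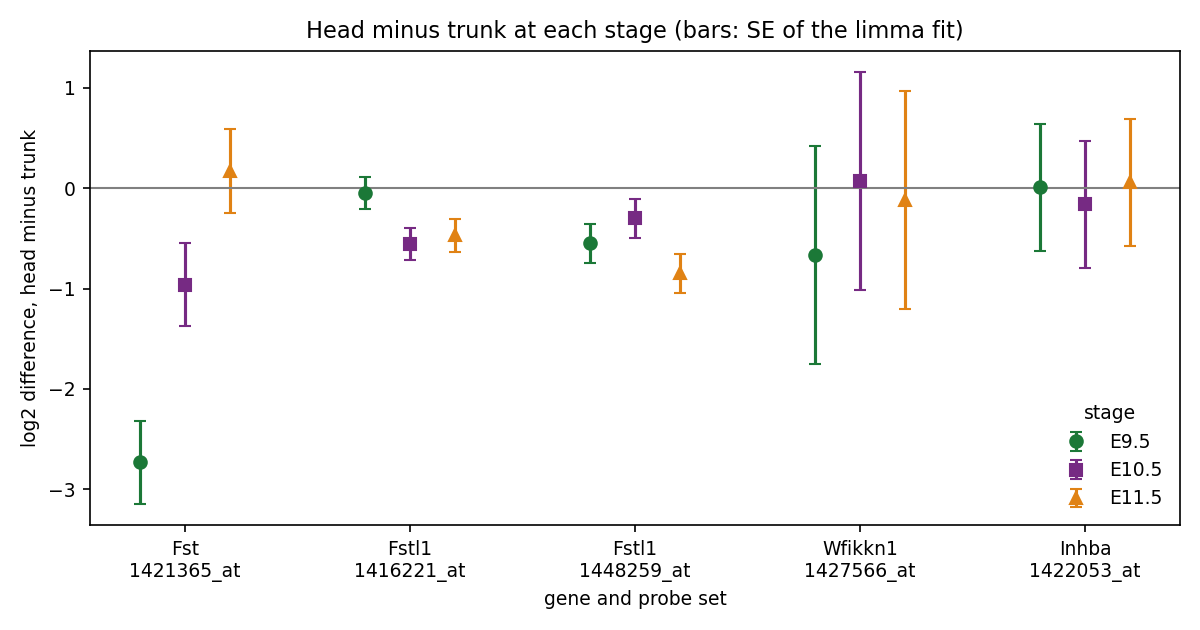
Head minus trunk (log2) for each probe set at E9.5 (circles), E10.5 (squares) and E11.5 (triangles), with the SE of the limma fit (n = 2 arrays per group). Fst runs from −2.73 at E9.5 to 0.17 at E11.5, both Fstl1 probe sets are at or below −0.05 at every stage, and the bars of Wfikkn1 and Inhba cross 0.

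Fstl1 varied least of the 4 genes, over a log2 range of 0.90 on the probe set that stands for it and 1.45 on the other, and its signals were a little higher in trunk. On the former (1416221_at) the log2 signal was 12.03 and 11.99 in head and 11.99 and 12.13 in trunk at E9.5, which overlap. At E10.5 it was 12.02 and 12.06 in head and 12.77 and 12.42 in trunk. At E11.5 head had 11.88 and 12.10, and trunk 12.69 and 12.22. From E10.5 on both trunk arrays were above both head arrays, by 1.47-fold at E10.5 (head minus trunk −0.56 ± 0.16) and 1.39-fold at E11.5 (−0.47 ± 0.16), in the last of which 2.07% of all genes were called. Averaged over the stages the difference was −0.36 ± 0.09, with 10.5% of genes called.

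The other Fstl1 probe set (1448259_at) placed trunk above head at all 3 stages without overlap. Its head arrays ran from 10.44 to 11.09 and its trunk arrays from 11.18 to 11.88. Head minus trunk was −0.55 ± 0.19 at E9.5, −0.30 ± 0.19 at E10.5 and −0.85 ± 0.19 at E11.5. The 2 probe sets thus differ most at E9.5, where the former gave −0.05 ± 0.16. They also differ in which trunk stage is highest, E10.5 on the former and E11.5 on the latter. From E9.5 to E11.5 the trunk change was 0.40 ± 0.16 and 0.49 ± 0.19, and the head change −0.02 ± 0.16 and 0.19 ± 0.19. The trunk value of 1416221_at was 0.16 without trunk E11.5 replicate 1 and 0.63 without trunk E11.5 replicate 2.

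Inhba, the ligand subunit, lay below the median throughout, so the values order its signals without measuring a fold. Its log2 signal at E9.5 was 4.38 and 2.92 in head and 3.82 and 3.47 in trunk. At E10.5 it was 4.21 and 3.43 in head and 4.24 and 3.73 in trunk. At E11.5 it was 5.56 and 6.07 in head and 6.25 and 5.27 in trunk. All 4 arrays of E11.5 were above the 8 earlier arrays, and head and trunk overlapped at every stage.

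Over both days Inhba differed by 2.16 ± 0.63 in head and 2.11 ± 0.63 in trunk, nearly all of it in the second day (1.99 and 1.77). Between the tissues the difference in this change was 0.05 ± 0.89. With signals raised to the array median both changes vanish (−0.00314 in head and 0.00414 in trunk). Which head array of E9.5 was kept set the head value, at 2.89 with replicate 2 alone and 1.43 with replicate 1 alone. Inhba and Wfikkn1 ran in opposite directions over the 12 arrays (Pearson r −0.81, a description over arrays that share 6 groups), and Fst and Wfikkn1 had r 0.57. As Inhba was below the median on all 12 arrays and Wfikkn1 on 9, the opposite pattern of this pair rests largely on dim signals.

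To show the start-site regions of the pair with opposite stage patterns, the 250 bases before the annotated start of Wfikkn1 and of Inhba follow, from RefSeq (GRCm38.p6), 5′ to 3′ on the gene's strand. The table held a promoter for 3 of the 4 genes, not for Fst. Capitals mark CANNTG, the E-box that myogenic basic helix-loop-helix factors such as Myf5 can bind. It reads the same on both strands, and no match shown overlaps another.
Wfikkn1 (chr17:25880859-25881108, minus strand): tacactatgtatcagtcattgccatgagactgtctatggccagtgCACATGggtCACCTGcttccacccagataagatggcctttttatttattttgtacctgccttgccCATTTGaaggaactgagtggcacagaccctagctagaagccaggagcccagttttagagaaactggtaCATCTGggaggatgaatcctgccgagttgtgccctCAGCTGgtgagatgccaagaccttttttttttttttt
Inhba (chr13:16011601-16011850, plus strand): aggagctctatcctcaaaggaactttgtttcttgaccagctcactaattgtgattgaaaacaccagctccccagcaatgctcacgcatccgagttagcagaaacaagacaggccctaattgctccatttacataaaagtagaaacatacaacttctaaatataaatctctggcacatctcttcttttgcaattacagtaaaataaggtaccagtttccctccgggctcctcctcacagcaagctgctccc

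Wfikkn1 held 5 E-boxes in this window, the nearest starting 37 bases before the start. Inhba held none, and neither did Fstl1. Of all 32851 promoter windows of this length 66.2% held at least 1, with a median of 1. The Smad-binding letters CAGAC, on either strand, stood once in the Wfikkn1 window, not in those of Inhba and Fstl1, and in 42.2% of all windows. These are matches of letters in one window and not sites shown to be bound.

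The genes whose signal followed each member most closely over the 12 arrays were found by Pearson r among the genes tested. Points share groups and stages, so r is a description with no p. For Fst they were Nid2, a nidogen of basement membranes (r 0.92), the translesion polymerase gene Rev1 (0.91), the glutamine transporter gene Slc1a5 (0.91), Snrpa1 (0.90) and Cdca7 (0.89). Nid2 had group means of 9.31 in trunk at E9.5 and of 8.34 to 8.79 elsewhere.

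For Wfikkn1 they were Mogat2 (r 0.94), the early embryonic zinc finger gene Sall4 (0.94), the fatty acid elongase gene Elovl2 (0.93), the zinc finger gene Zbtb16 (0.93) and Cd2ap (0.93). Sall4 had a group mean of 11.42 in head and 11.47 in trunk at E9.5, and of 8.32 and 7.82 at E11.5. Wfikkn1 was below the array median on 9 of the 12 arrays, so its likenesses rest largely on dim signals. Zbtb16 itself had group means of 4.96 to 6.19 at E10.5 and E11.5, below the array median. For Inhba they were the polycomb gene Cbx6 (0.96), Nfix (0.90), which directs the fetal muscle program, the retinoid receptor gene Rxra (0.89), the FGF receptor gene Fgfr4 (0.88) and the R-spondin receptor gene Lgr5 (0.87). Nfix had means of 1.90 in head and 2.25 in trunk at E9.5, and of 6.44 and 7.12 at E11.5, all but the last below the array median, so that its likeness to Inhba rests largely on dim signals. As Inhba is below the median on all 12 arrays, all 5 of these likenesses rest on its dim signal. For Fstl1 they were Acss1 (0.91), the pentraxin gene Ptx3 (0.90), Ccdc85a (0.90), Nell2 (0.90) and Tm2d1 (0.90), each highest in trunk at E10.5. Of these, Ccdc85a had group means of 3.96 to 6.46, all below the array median. Nell2 had 6.92 in trunk at E10.5 and 3.02 to 5.57 elsewhere, so both likenesses rest largely on dim signals.

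**Figure D3:**
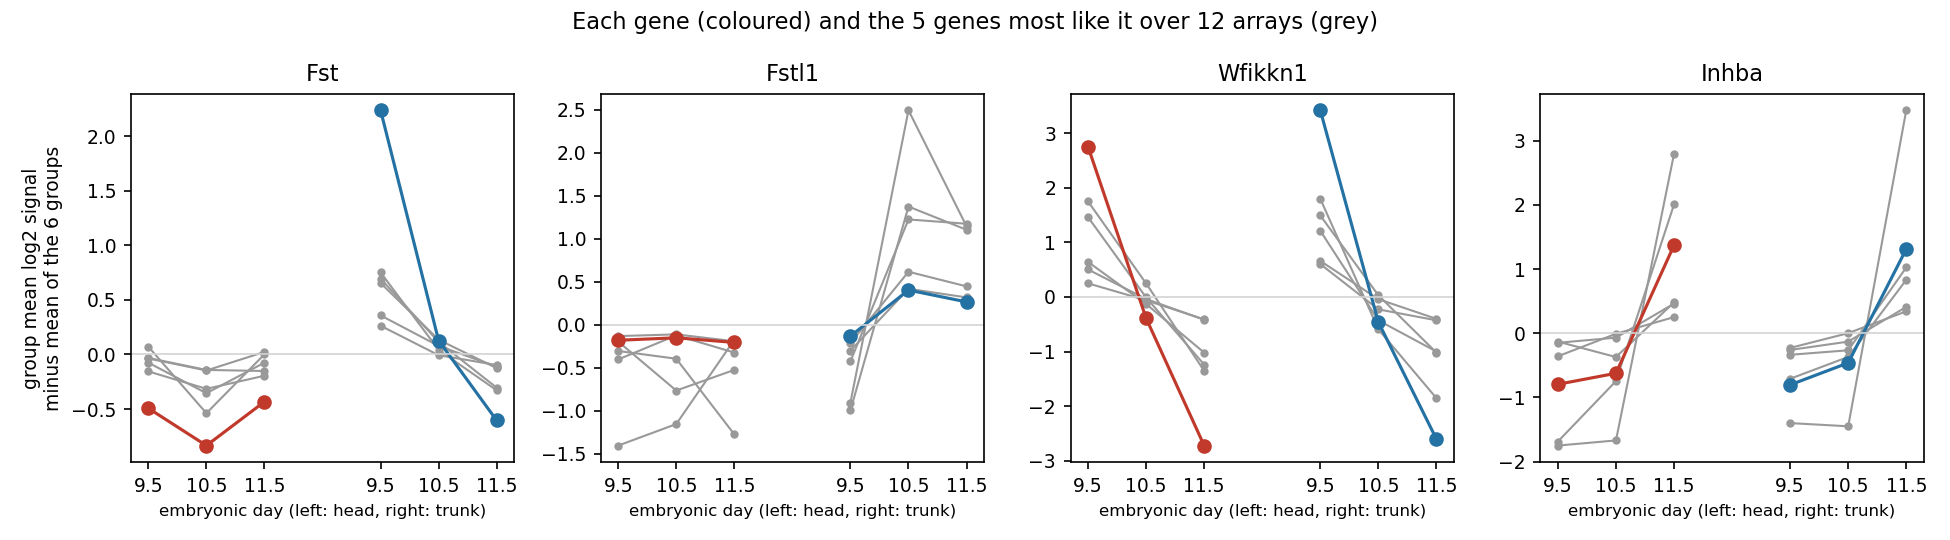
Group means (log2, each gene centred on the mean of its 6 groups) of the 4 genes, in red for head and blue for trunk, and of the 5 genes most like each by Pearson r over 12 arrays, in grey. Each panel has its own vertical scale; the grey genes were picked for following the member, and their changes differ in size and timing, as in Rxra, which goes from 7.87 to 8.22 and 8.48 in head where Inhba stays low until E11.5.

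The rest of the pathway was read from a list of 61 ligands, receptors, binding proteins, processing enzymes, transducers and target genes, of which 51 had a probe set of their own and 30 were tested. The list was chosen with earlier results of these data known. Here and below, its share of called genes beside that of all genes is therefore a description, and whether the pathway as a set differs was not tested. From E9.5 to E11.5 in trunk, where Fst and Wfikkn1 were lower at the end, 10 of the 30 rose and 1 fell by limma (Benjamini-Hochberg adjusted p below 0.05), or 36.7% against the 13.4% of all genes, of which 8.73% rose and 4.71% fell. The list's median change was log2 0.35, against −0.01 over all genes tested. Among ligands Tgfb2 rose 6.08-fold (log2 2.60 ± 0.20, adjusted p = 1.2e-05), from 8.92 and 9.07 to 11.71 and 11.48. Of 9 receptors and co-receptors 3 rose and 1 fell. The one that fell was Acvr2b, the type II receptor of activin and myostatin (log2 −1.0 ± 0.20, 2.01-fold, adjusted p = 0.00708), from 9.16 and 9.44 to 8.32 and 8.27. Its call was lost without trunk E9.5 replicate 2 or trunk E11.5 replicate 2, with an adjusted p of at most 0.0541.

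Of 3 other binding proteins 2 rose in trunk. The proteoglycan decorin (Dcn), which binds TGF-beta and myostatin, rose at least 7.79-fold (log2 3.86 ± 0.43, adjusted p = 0.00017), from 6.04 and 5.70, below the median, to 9.69 and 9.77. Of 4 target genes 3 rose, among them the matrix gene Tgfbi by 5.92-fold (log2 2.57 ± 0.18, adjusted p = 8.06e-06). None of 4 processing enzymes and none of 7 intracellular transducers was called, at adjusted p below 0.05. The other genes called higher, named after their values were seen, were Ltbp3, Pmepa1, Cdkn1a, Tgfbr2, Eng, Inha and Bmpr2. Eng lay below the median in trunk at both stages and its other probe set gave −0.19. Its call was lost without trunk E9.5 replicate 1, without trunk E11.5 replicate 1 and without both E10.5 replicate 1 arrays, with an adjusted p of at most 0.234. Inha and Bmpr2 each lost their call without any one of 8 arrays and without both E10.5 replicate 1 arrays, with an adjusted p of at most 0.184 and 0.263.

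In head over the same days 2 of the 30 rose and none fell, or 6.67% against 4.78% of all genes (2.75% higher and 2.03% lower). They were Tgfb2 (3.41-fold, log2 1.77 ± 0.20, adjusted p = 0.000419) and the cell cycle inhibitor gene Cdkn1a (3.08-fold, log2 1.62 ± 0.40, adjusted p = 0.0373). The call of Cdkn1a was lost in 10 of 18 alternative settings, 8 of them the omission of a single array and 1 that of both E10.5 replicate 1 arrays. Acvr2b had arrays at 9.46 and 9.08 and then at 8.45 and 8.54 in head, and did not pass. The difference between the tissues was itself called for Tgfbi and Dcn, both with the larger rise in trunk (6.67% of the list against 1.48% of all genes, 0.272% with the higher change in head and 1.2% with the lower). Of the 10 connective tissue markers 3 had the lower change in head and none the higher.

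**Figure D4:**
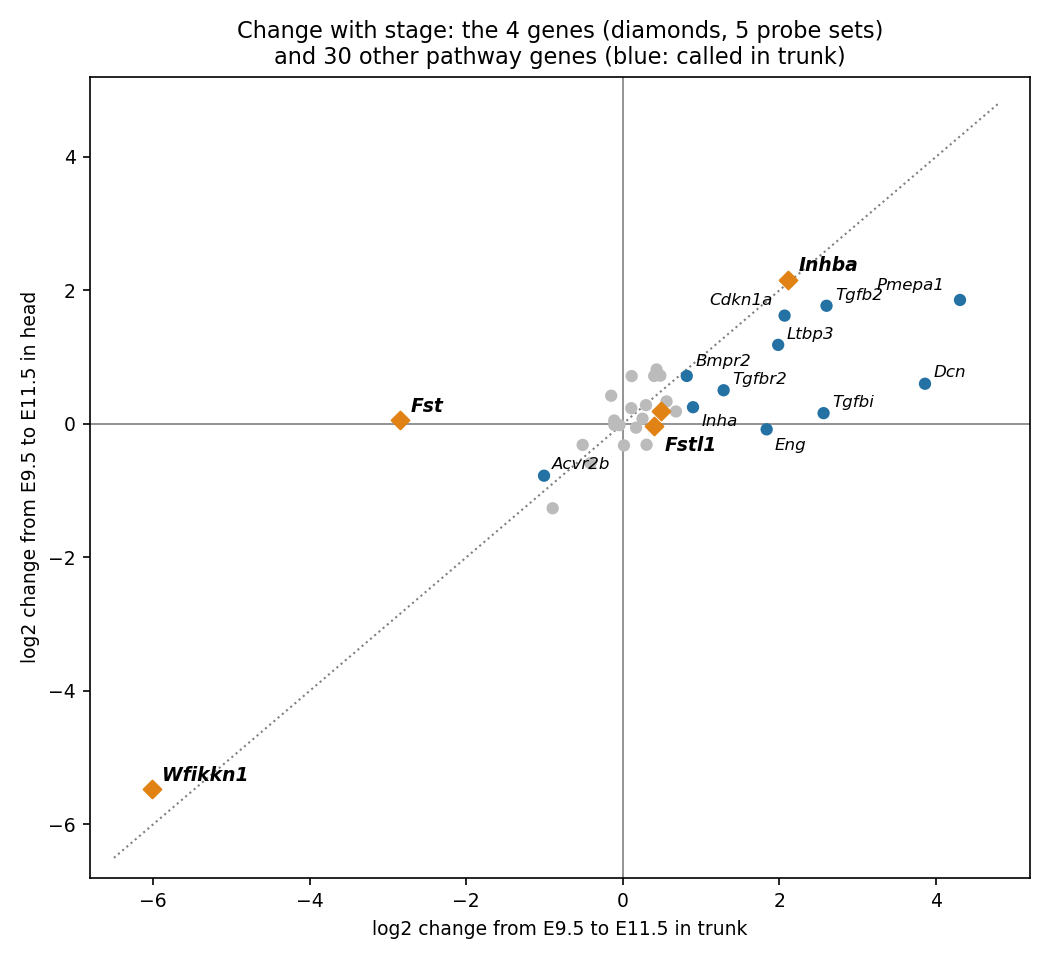
Log2 difference, E11.5 minus E9.5, for trunk (horizontal) and head (vertical), of the 5 probe sets of the 4 genes (diamonds) and 30 other pathway genes (blue where called in trunk, grey otherwise), with equality dotted. Fst lies at −2.84 in trunk and 0.06 in head, and Wfikkn1 and Inhba lie near the dotted line. Blue genes were picked for their trunk change, which favours places below that line for genes that rose, and over all 30 the median of the head minus the trunk change was −0.2.

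Averaged over E9.5, E10.5 and E11.5, 6 of the 30 were higher and 2 lower in head, or 26.7% against the 10.5% of all genes (6.85% higher and 3.61% lower), with a median of 0.11 against −0.001. The receptors led: Tgfbr2, the TGF-beta type II receptor (log2 0.98 ± 0.13, 1.97-fold, adjusted p = 0.000397), the co-receptor endoglin (Eng, 1.89 ± 0.29, at least 1.56-fold, adjusted p = 0.00115) and Acvr2a, the other activin type II receptor (0.89 ± 0.15, 1.85-fold, adjusted p = 0.0019). Acvr2a ran from 9.84 to 10.77 on the 6 head arrays and from 9.12 to 9.97 on the 6 trunk arrays, with a small overlap. Lower in head were the proprotein convertase gene Pcsk5 (−0.90 ± 0.21, at least 1.46-fold, adjusted p = 0.0178) and Tgfb3 (−0.69 ± 0.18, at least 1.43-fold, adjusted p = 0.0308). Acvr1b, Bambi and Skil, named after their values were seen, were also called higher. The count of 8 dropped to between 3 and 5 without any one of 10 arrays, all but head E10.5 replicate 1 and head E11.5 replicate 1, and was 5 without both E10.5 replicate 1 arrays. Acvr1b, Bambi and Skil lost theirs in 14, 11 and 13 of 18 alternative settings. Tgfbr2, Eng and Acvr2a kept their calls in every alternative run, and Pcsk5 and Tgfb3 lost theirs in 4 of 17 and 11 of 18. Without both E10.5 replicate 1 arrays the genes that lost the call were Acvr1b, Pcsk5, Skil and Tgfb3.

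At single stages fewer were called. At E9.5, where Fst differed most, Tgfbi (2.58-fold), Tgfbr2 (2.35-fold) and Eng (at least 1.33-fold) were higher in head and none was lower, or 10.0% of the list against 5.92% of all genes (4.67% higher and 1.24% lower). Without head E9.5 replicate 2 Eng had an adjusted p of 0.0544, and without trunk E9.5 replicate 1 Tgfbr2 had 0.0583. At E10.5 Tgfbr2 alone was called (2.39-fold higher in head, as were 2.45% of all genes, with 2.07% lower), and not without head replicate 1, trunk replicate 2 or both replicate 1 arrays of that stage. At E11.5 Dcn (5.46-fold) and Tgfbi (2.05-fold) were lower in head, as were 1.36% of all genes, with 0.712% higher. Of 10 connective tissue and mesenchyme markers 5 were lower in head at that stage and none higher, with summed signals of 12688 and 12768 in head and 24246 and 27556 in trunk, and 2 were lower at E10.5. Dcn lost that call without any one of the 4 E11.5 arrays, and Tgfbi without head replicate 2 or either trunk array of that stage.

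Markers of other cells differed along the same comparisons. From E9.5 to E11.5 in trunk, where Fst was lower at the end, 7 of 10 connective tissue and mesenchyme markers rose and none fell, and their summed signal went from between 9514 and 11358 to between 24246 and 27556 intensity units. Of 8 neuronal markers 7 rose in trunk, from summed signals of 585 and 884 to 3699 and 4795. Of 7 epithelial markers 5 fell in trunk and 7 in head. At E9.5 7 of 8 neuronal, 7 of 7 epithelial and 5 of 7 tested endothelial markers were higher in head than in trunk, with summed neuronal signals of 4723 to 7387 in head. In that comparison, where Fst differed most, 2 of 8 myogenic markers were higher and 3 lower in head, and 4 of 10 connective tissue markers were higher and 1 lower. Over the mean of the stages, where Eng, an endothelial co-receptor, was called, 7 of 7 tested endothelial, 8 of 8 neuronal, 7 of 7 epithelial and 4 of 4 macrophage and leukocyte markers were higher in head, and 4 of 10 connective tissue markers lower. At E9.5 the endothelial summed signal was 2073 and 2891 in head and 488 and 504 in trunk. Of the endothelial markers Pecam1 was below the median on every array, as were the leukocyte markers Ptprc and Cd52. Of 4 macrophage and leukocyte markers tested 2 were higher in head at E9.5 and 2 rose in trunk, while none of 4 neural crest and none of 4 erythroid markers tested was called by limma in either comparison. Elsewhere, 1 erythroid marker fell in head over the 2 days, and 1 neural crest marker was higher in head over the mean of the stages. Erythroid signal was present in every group, with array sums from 8437 (head E11.5) to 24964 (head E9.5). Of 8 myogenic markers tested, 3 rose in trunk and 4 in head over the 2 days. The part of these cells in the signals of Fst, Fstl1, Wfikkn1 and Inhba was not tested, and in sorted populations fewer cells of a type cannot be told apart from less RNA per cell.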

How the data were processed

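The authors deposited 1 signal per probe set of a 1-colour Affymetrix mouse array, on a linear intensity scale. Per the submitters' processing notes MAS5 and Affymetrix Expression Console were used. Per the labels, RNA of sorted cells was extracted with QIAzol, amplified and hybridised as biotinylated cRNA. The arrays' percentiles already lay within 0.035 (log2) of one another, so no further normalization was applied, and log2 was taken. Of 22690 probe sets 64 were controls, 691 had several genes and 1555 none; 20351 of the remaining 20380 matched the gene table by Entrez identifier. A probe set was tested with at least 2 arrays above their median, and the probe set of highest mean stood for a gene, which gave 7722 genes.

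Group means were compared with limma 3.58.1 (R 4.3.3; 6 residual and 5.87 prior degrees of freedom, intensity trend, two-sided, Benjamini-Hochberg over all genes, threshold 0.05), in 7 comparisons. The test was tried on simulated arrays. SEs of Inhba and 1448259_at come from a fit of all probe sets. Folds are bounds ("at least") where the dimmer side had an array below the median, which was raised to it. The number of arrays limits the precision. Named genes are the 4 members, up to 3 called list genes of smallest p each way per comparison and the 5 genes most like each member; others are marked. The members and lists were chosen with earlier results of these data known. Of 21 other probe sets of called list genes 1 had the opposite sign. Alternatives were quantile normalization, no filter, no probe sets with suffixes _s, _x or _a, no intensity trend, a replicate block, other rules for the members' probe sets and dim signals, and omitted arrays. Replicate numbers are shared between groups, and no pairing was used. Over all genes tested, the deviations of head and trunk arrays of one number had r of 0.006, −0.001 and −0.096 at the 3 stages. Such an r cannot tell whether arrays of one number share a source. Both E10.5 replicate 1 arrays had low Xist, and the labels do not state whether that pair shares a source.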

Additional observations from a re-analysis of the deposited data

Results flagged for a closer look

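For 2 list genes the stage change, E11.5 minus E9.5, differed between head and trunk by limma. Tgfbi changed less in head by log2 −2.40 ± 0.26 (adjusted p = 0.00103), with signals of 11.02 and 11.05 at E9.5 and 11.42 and 10.98 at E11.5 in head, and of 9.77 and 9.57 and then 12.20 and 12.27 in trunk. Dcn changed less in head by −3.26 ± 0.61 (adjusted p = 0.0211), a call lost in 8 of 18 alternative settings, with an adjusted p of at most 0.0918. At E9.5 Dcn lay below the array median on both trunk arrays and on head replicate 1, so the difference passes through dim signals. With those raised to the median, the change was at least 7.79-fold in trunk and at least 1.30-fold in head, where it was not called.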

How the results depend on the processing

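The 28 differences of the 4 genes were computed 504 times under alternatives, and 28 of these values moved by more than the gene's within-group SD. Many of the 504 could not move, so this count is no measure of stability. The replicate block, dropping suffixed probe sets and omitting an array outside the compared groups leave a member's difference of group means as it was. With signals raised to the array median, E11.5 minus E9.5 of Wfikkn1 was −0.31 in head and −0.86 in trunk, and that of Inhba −0.00314 and 0.00414, since that setting removes what lies below the median. With the mean of its probe sets, head minus trunk of Fstl1 was −0.30 at E9.5 and −0.66 at E11.5. Without both E10.5 replicate 1 arrays head minus trunk at E10.5 was −0.36 for Fstl1 and 1.15 for Wfikkn1. Leaving out single arrays gave, for head minus trunk, −0.72 to 0.74 for Inhba at E9.5, −0.69 to 0.84 for Wfikkn1 at E10.5, and −0.48 to 0.82 for Fst and −0.70 to −0.24 for Fstl1 at E11.5. For E11.5 minus E9.5 it gave −0.59 to 0.71 for Fst and 1.43 to 2.89 for Inhba in head, and 0.16 to 0.63 for Fstl1 in trunk. For the difference between these changes it gave 2.25 to 3.56 for Fst, −0.66 to −0.19 for Fstl1 and −0.68 to 0.78 for Inhba. Head minus trunk of Fst at E9.5 stayed between −3.11 and −2.35.

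Of the list, 8 genes called over the mean of the stages became 4 with no filter, 5 with no intensity trend, 5 without both E10.5 replicate 1 arrays and 3 to 7 without single arrays. Single omissions gave 2 to 5 at E9.5, 0 to 3 at E10.5, 0 to 3 at E11.5, 1 to 3 for the change in head, 8 to 11 for the change in trunk and 1 to 2 for the difference between the changes. Without both E10.5 replicate 1 arrays limma called 0 at E10.5, with 5 at an unadjusted p under 0.05, and 1 for the change in head. The single omissions with 0 calls had 5 to 7 such genes. Without probe sets of suffix _s, _x or _a 1 was called at E11.5, and with no intensity trend 1 for the difference between the changes. The causes were not tested. With the replicate number as a replicate block the counts were 7 over the mean, 4 at E9.5, 1 at E10.5 and 2 at E11.5. For the changes in head and trunk they were 3 and 10, and for their difference 2. By the labels the arrays of a block share only a number, though both E10.5 replicate 1 arrays also had low Xist. Of 29 called gene results 13 kept their call in every alternative run, and none changed sign. An omission that leaves a group with 1 array assumes that it varies like the other groups.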
